A study of Danio rerio with 20 samples.

Results

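The ribosome biogenesis genes described here encode proteins that transcribe, modify, cut and assemble ribosomal RNA. They are not proteins of the finished ribosome. They were taken from a fixed list of 40 gene symbols, matched to the rows of the count table by symbol with case ignored. Of these, 39 were found among 32266 gene rows, each by its own symbol, and brix1 was not matched. All 39 had counts, and all 39 passed the filter on low counts and were tested. Symbols are printed as the name table gives them, many of them in capitals.

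RNA was sequenced from adult zebrafish of the transgenic line Tg(olig2:eGFP), which makes green fluorescent protein under control of olig2, a transcription factor gene of the oligodendrocyte lineage. In the lesion group, 10 libraries came from fish at 7 days after the spinal cord was transected; in the sham group, 10 libraries came from fish of the same line that were operated on with the cord left intact. Per the labels' protocols, 9 cords per group gave pieces of about 0.5 mm, taken next to the lesion on its rostral side or at the matching level in sham fish, and these were pooled within a group and dissociated before live GFP-positive cells were sorted. Since each group was 1 pool at that step, its libraries may share their animals. The p-values cover the variation among libraries, part or all of which may be technical.

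A ribosome begins in the nucleolus, where RNA polymerase I copies the ribosomal RNA genes into a long precursor. Small nucleolar ribonucleoproteins (snoRNPs) then modify the precursor at sites chosen by their guide RNAs: box C/D particles add methyl groups and box H/ACA particles make pseudouridines. Assembly factors, GTPases and helicases fold and trim the pieces into the precursors of the small and the large subunit, which are finished in the cytoplasm. Cells that grow or divide are known to need much of this machinery, and Myc transcription factors are known to raise many of its genes.

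Library totals ran from 7134670 to 10264810 counts and overlapped between the groups. Genes with a count numbered 14890 ± 1022 in lesion libraries and 11947 ± 854 in sham libraries (SD, n = 10 each), with no overlap. The cells carried oligodendrocyte-lineage markers in both groups: OLIG2 averaged 7490 ± 1352 CPM in lesion libraries and 8302 ± 1163 CPM in sham libraries (CPM, counts scaled to a common effective library size; SD, n = 10 each). SOX10, another transcription factor of the lineage, averaged 672 ± 86.5 CPM in lesion libraries and 719 ± 209 CPM in sham libraries. PDGFRA, a marker of oligodendrocyte progenitors, had more than 3 counts in 0 lesion libraries and 1 sham library, and CSPG4, another progenitor marker, in 5 libraries of each group. All 17 genes of the oligodendrocyte-lineage list had counts, and their summed level ran from 74549 to 163148 CPM in lesion libraries and from 104670 to 174456 CPM in sham libraries. Of 16 microglia and macrophage genes 11 had counts and 1, apoeb, was tested. That gene rose, with means of 7393 ± 1495 CPM in lesion and 691 ± 341 CPM in sham libraries (log2 fold change 3.42, edgeR adjusted p = 6.5e-10). All 10 lesion libraries lay above every sham library for apoeb. The list summed to 5154 to 9389 CPM in lesion libraries and 309 to 1337 CPM in sham libraries. Without apoeb it summed to 0.107 to 254 CPM in lesion libraries and 0 to 90.4 CPM in sham libraries, and LCP1, c1qa, c1qb and 2 of the 3 MPEG1 rows were at 0. The third MPEG1 row had at most 0.124 CPM in lesion libraries and 17.01 CPM in sham libraries. The 13 neuron genes summed to 373 to 1041 CPM in lesion and 357 to 1013 CPM in sham libraries, with 0 of 8 tested called. Endothelial and mural genes summed to at most 98.5 CPM in lesion and 26.4 CPM in sham libraries, and fibroblast genes to at most 151 and 78.5 CPM. Of the red cell list, hbaa1, hbaa2 and hbae5 were at 0. Its gene cahz averaged 338 CPM in lesion and 719 CPM in sham libraries (edgeR adjusted p = 0.00312).

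Markers of ependymo-radial glia, the cells that line the central canal, moved with the lesion in both directions. All 15 genes of that list had counts; 10 were tested, of which 3 rose and 2 fell, and the sum of the 15 ran from 4452 to 8961 CPM in lesion libraries and from 6669 to 10901 CPM in sham libraries. FOXJ1, a transcription factor of ciliated cells, averaged 81.2 ± 97.2 CPM in lesion and 0.446 ± 1.24 CPM in sham libraries (edgeR adjusted p = 4.8e-04). The glial filament gene GFAP averaged 209 ± 242 CPM in lesion and 16.3 ± 13.3 CPM in sham libraries (edgeR adjusted p = 0.0296), and S100B, a calcium-binding protein of glia, averaged 375 ± 139 CPM in lesion and 165 ± 79.9 CPM in sham libraries (edgeR adjusted p = 0.00629). The 2 that fell were the GLUL rows, for glutamine synthetase, with means of 2275 and 1404 CPM in lesion and 4082 and 3036 CPM in sham libraries. In sham libraries these rows had the highest means of the list and so weigh most in its sum. Every other tested gene of the list had a positive log2 fold change. The notch target gene her4.1, which was not tested, averaged 68.3 CPM in lesion and 0.110 CPM in sham libraries.

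Among the ribosome biogenesis genes, npm1a rose after the lesion and was the only one of 39 to pass the test, while 0 fell. The test was edgeR's quasi-likelihood F test over the 10467 genes that passed the filter, with Benjamini-Hochberg adjustment and a threshold of 0.05. Over all genes tested it called 7.58%, with 4.34% higher and 3.24% lower, so that 1 of 39 is no larger a share than the background. Before adjustment, 4 members had a p under 0.05 (npm1a, DDX21, NOP58 and NOB1), against 15.7% of all genes tested. None of the 39 separated the groups without overlap, as 2.01% of all tested genes did. A positive log2 fold change means a higher level in lesion libraries; it was found for 30 members and a negative one for 9, while 51.6% of all tested genes were positive. The median log2 fold change was 0.40 over the members, with quartiles at 0.01 and 0.62, and 0.03 over all genes tested. In these bulk samples, fewer cells of a kind and less RNA per cell cannot be told apart. The part of the larger number of detected genes in lesion libraries, or of apoeb, the ependymo-radial glia markers and the other cell type markers, in these values was not tested.

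**Figure D1:**
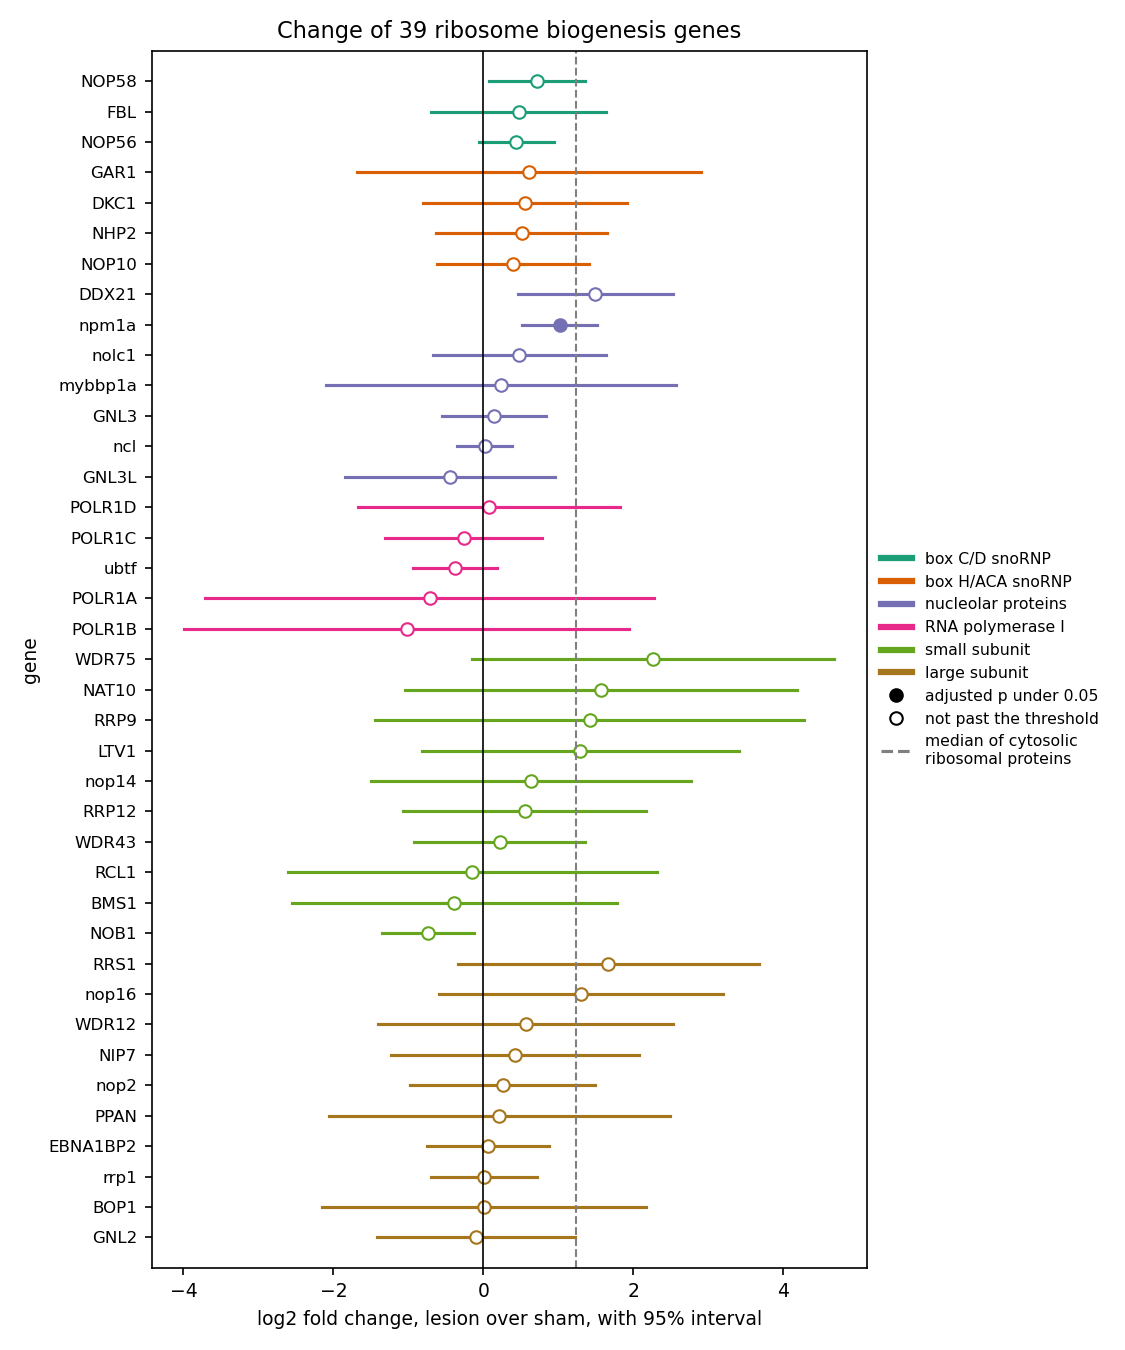
Log2 fold change of each of the 39 ribosome biogenesis genes, lesion over sham, on the x axis, with its 95% interval as a line; colours give the role, filled points passed an adjusted p of 0.05, and the dashed line is the median of the cytosolic ribosomal protein genes (1.23). npm1a is the only filled point; 35 intervals include 0, and 10 end below the dashed line.

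npm1a encodes nucleophosmin, an abundant nucleolar protein that binds ribosomal precursors and acts as a chaperone. It lies on chromosome 10, from 22065025 to 22075667 of build GRCz10. Its level ran from 127.4 over a median of 175.6 to 280.2 CPM in lesion libraries, and from 41.78 over 99.94 to 151.7 CPM in sham libraries. The groups overlapped slightly: 8 of 10 lesion libraries lay above every sham library, and 8 of 10 sham libraries lay below every lesion library. The means were 190 ± 52.0 CPM in lesion libraries and 93.8 ± 40.7 CPM in sham libraries (SD, n = 10 each), a 2.02-fold difference. Its log2 fold change was 1.02 ± 0.24 (SE), with a 95% interval from 0.51 to 1.52 and an edgeR adjusted p of 0.00797. It passed in each of the 20 fits that left out 1 library. The sample titles end in a letter and a number, and the letters place 6 libraries per group in row A and 4 in row B. The numbers run from 1 to 6 in sham libraries and from 7 to 12 in lesion libraries. What goes with the number therefore cannot be told apart from the lesion. Within row A, npm1a averaged 179 ± 30.6 CPM in lesion and 93.6 ± 44.4 CPM in sham libraries, and its log2 fold change of 0.96 did not pass (edgeR adjusted p = 0.123). Within row B the means were 206 ± 77.2 CPM in lesion and 94.1 ± 41.1 CPM in sham libraries, and the log2 fold change there was 1.11 (edgeR adjusted p = 0.273). With all libraries in 1 fit and the title row as a second term, the log2 fold change was 1.01 and the edgeR adjusted p 0.00998. When the count of detected genes per library entered the model as a covariate, the log2 fold change was 1.43 and the edgeR adjusted p 0.166. Since that count did not overlap between the groups, this fit could separate it from the group only in part.

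DDX21, an RNA helicase that works in ribosomal RNA transcription and processing, had the second smallest p of the members. Its level ran from 55.2 over a median of 102.6 to 190.1 CPM in lesion libraries and from 0.286 over 32.05 to 94.61 CPM in sham libraries. Here 6 of 10 lesion libraries lay above every sham library, and sham replicate 8 stood lowest of all. The means were 110 ± 44.0 CPM in lesion and 38.97 ± 29.9 CPM in sham libraries, with a log2 fold change of 1.49 ± 0.50 that did not pass the threshold (edgeR adjusted p = 0.077). Leaving out sham replicate 8 or sham replicate 2 brought it past (edgeR adjusted p = 0.0191 and 0.0354), as did DESeq2's Wald test (adjusted p = 0.0422), limma-voom (adjusted p = 0.0233) and edgeR without the filter on low counts (adjusted p = 0.0458).

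Nucleolin (ncl), a nucleolar protein that binds ribosomal RNA and takes part in its transcription and processing, had nearly equal means in both groups. Its level ran from 248 to 408 CPM with a median of 340 in lesion libraries, and from 204 to 549 CPM with a median of 293 in sham libraries. All lesion libraries lay within the sham range. The means were 332 ± 58.0 CPM in lesion and 328 ± 121 CPM in sham libraries. The log2 fold change of 0.02 had the narrowest interval of all members, from -0.36 to 0.39 (edgeR adjusted p = 0.993), and this interval lies below that of npm1a. The difference between the 2 genes' changes was not tested.

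Of the other 4 nucleolar proteins 0 passed. GNL3, or nucleostemin, a nucleolar GTPase known from stem and dividing cells, averaged 50.7 ± 25.8 CPM in lesion and 45.9 ± 20.1 CPM in sham libraries. Its relative GNL3L averaged 32.3 ± 22.9 CPM in lesion and 43.9 ± 32.9 CPM in sham libraries. The phosphoprotein gene nolc1, whose product binds snoRNPs, averaged 34.2 ± 11.5 CPM in lesion and 24.6 ± 21.8 CPM in sham libraries. The Myb-binding protein gene mybbp1a averaged 18.1 ± 13.8 CPM in lesion and 15.4 ± 19.9 CPM in sham libraries. Their log2 fold changes ran from -0.44 for GNL3L to 0.48 for nolc1. Of the 2169 exon bases of GNL3, 140 are shared with PBRM1 and 443 with GLT8D1 on the opposite strand. Strand was ignored in counting, so reads in such stretches cannot be told apart.

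**Figure D2:**
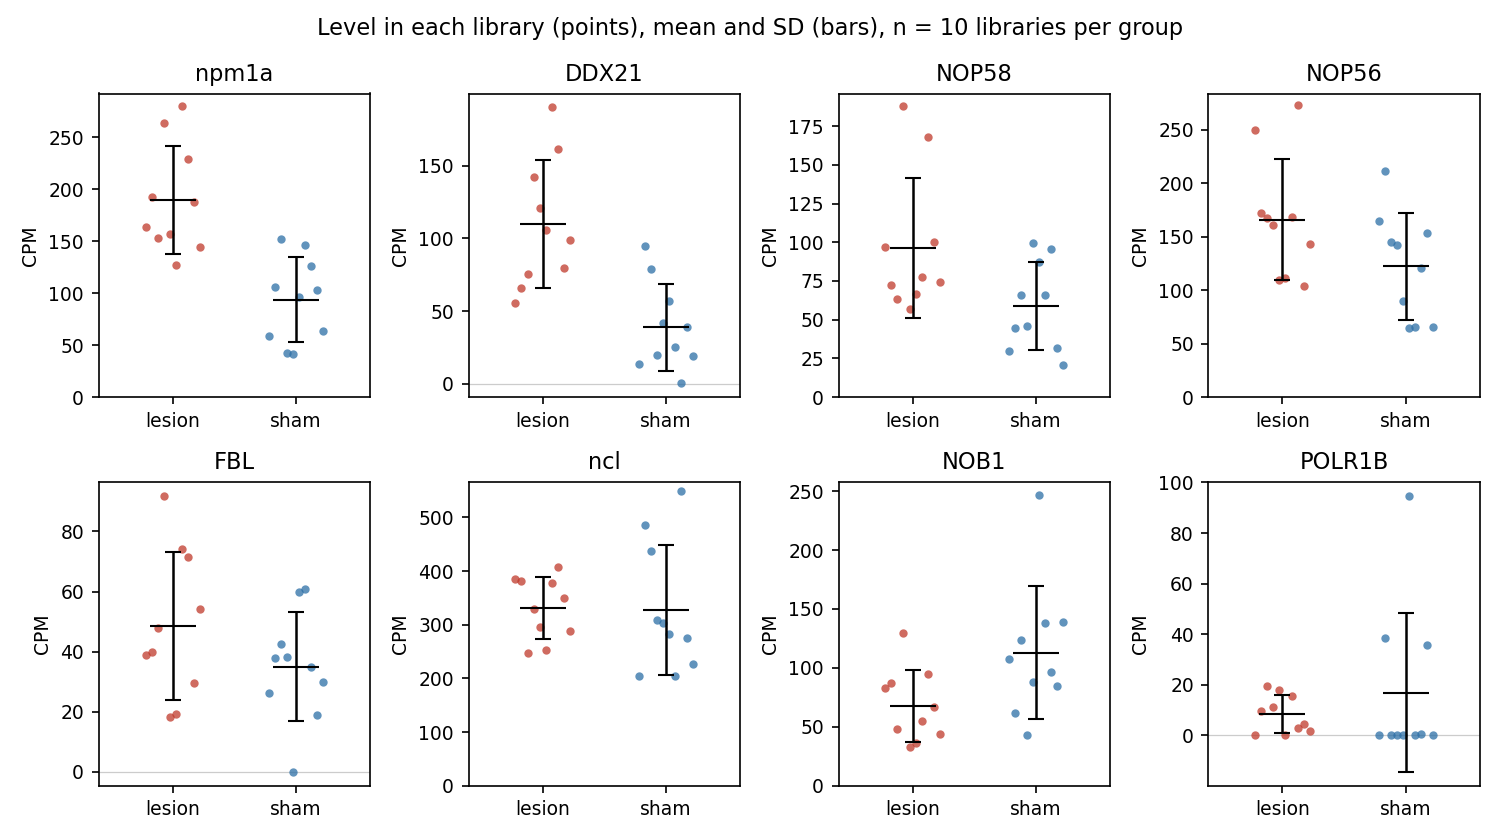
Level in CPM (y axis) of 8 ribosome biogenesis genes in each lesion and each sham library (points), with the mean and SD as bars, n = 10 libraries per group. npm1a and DDX21 sit higher in lesion libraries with overlap, the lesion libraries of ncl lie within the range of its sham libraries, and NOB1 averages 67.8 CPM in lesion libraries against 113 CPM in sham libraries.

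The 3 proteins of the box C/D snoRNP, which carries the methylation of ribosomal RNA, all had positive log2 fold changes, and 0 of 3 passed. NOP58, a core scaffold of the particle, ran from 56.8 over a median of 76.0 to 187.7 CPM in lesion libraries and from 20.9 over 55.9 to 99.3 CPM in sham libraries. All 10 lesion libraries lay above the sham median, and 3 lay above every sham library. Its means were 96.4 ± 45.3 CPM in lesion and 58.7 ± 28.5 CPM in sham libraries, a change of 0.72 ± 0.31 on the log2 scale (edgeR p = 0.0301, adjusted p = 0.228). NOP56, the partner scaffold, ran from 104 over a median of 164 to 273 CPM in lesion libraries and from 64.2 over 131 to 212 CPM in sham libraries. The ranges overlapped over most of their width. Its means were 166 ± 56.9 CPM in lesion and 122 ± 49.9 CPM in sham libraries, a change of 0.44 ± 0.24 on the log2 scale (edgeR adjusted p = 0.429). FBL, or fibrillarin, the methyltransferase of the particle, ran from 18.2 over a median of 43.7 to 91.9 CPM in lesion libraries and from 0 over 36.3 to 60.8 CPM in sham libraries. Only sham replicate 5 had no count of it. Its log2 fold change was 0.47 ± 0.56 (edgeR adjusted p = 0.871).

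The box H/ACA particle, which makes pseudouridine, was measured through all 4 of its core proteins, with log2 fold changes between 0.40 and 0.61 and 0 of 4 past the threshold. DKC1, or dyskerin, the pseudouridine synthase, ran from 12.3 over a median of 40.9 to 75.3 CPM in lesion libraries and from 0.870 over 22.9 to 104 CPM in sham libraries. Sham replicates 8 and 10 were the highest of all 20 libraries, and sham replicates 4, 6 and 7 were near 1 to 2 CPM. Its means were 45.1 ± 21.8 CPM in lesion and 30.7 ± 34.6 CPM in sham libraries (log2 fold change 0.56 ± 0.66, edgeR adjusted p = 0.866). NHP2 averaged 54.3 ± 19.7 CPM in lesion and 38.1 ± 23.7 CPM in sham libraries. NOP10 averaged 30.4 ± 10.8 CPM in lesion and 23.1 ± 16.7 CPM in sham libraries. GAR1, the least abundant of the 4, averaged 12.7 ± 9.05 CPM in lesion and 8.32 ± 8.07 CPM in sham libraries. For each of the 4 the 95% interval included 0.

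The 5 RNA polymerase I genes among the 39 had the lowest median of the 6 roles, at -0.38 on the log2 scale. Of these, 1 of 5 was positive, and 0 of 5 passed. By median CPM, however, POLR1A, POLR1B, POLR1C and POLR1D were higher in lesion libraries, and ubtf was lower. Other RNA polymerase I genes, from the wider pathway list described below, went in both directions without a call. Log2 fold changes there were 0.21 for polr1e, 0.63 for polr1g, 0.44 for POLR1H, 0.53 for RRN3 and 0.70 for TAF1B. They were -0.11 for POLR1F and -1.07 for TAF1A. POLR1A, the largest subunit, ran from 0 over a median of 1.74 to 34.0 CPM in lesion libraries and from 0 over 0.708 to 69.4 CPM in sham libraries. It had more than 3 counts in 7 lesion libraries and 5 sham libraries, so that its mean rests on a few of them: 33.5 to 69.4 CPM in sham replicates 3, 4 and 6, and 30.9 and 34.0 CPM in lesion replicates 5 and 2. The means were 8.71 ± 13.1 CPM in lesion and 14.3 ± 23.9 CPM in sham libraries, and the log2 fold change of -0.72 ± 1.45 has an interval from -3.71 to 2.28 (edgeR adjusted p = 0.947). POLR1B, the second-largest subunit, had the lowest log2 fold change of all members, -1.03 ± 1.44 (edgeR adjusted p = 0.906). It had more than 3 counts in 8 lesion libraries, at up to 19.4 CPM, and in 3 sham libraries, at 35.5, 38.5 and 94.7 CPM. Its medians were 7.08 CPM in lesion and 0.0618 CPM in sham libraries, so that median and mean order the groups in opposite directions.

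The remaining RNA polymerase I genes of the 39 were detected more evenly. POLR1C, a subunit shared with RNA polymerase III, averaged 24.3 ± 16.1 CPM in lesion and 29.1 ± 29.6 CPM in sham libraries. Its medians, 21.3 CPM in lesion and 16.8 CPM in sham libraries, stood in the opposite order, and sham replicate 6 was highest at 109.1 CPM. POLR1D, also shared with RNA polymerase III, averaged 10.7 ± 5.92 CPM in lesion and 10.2 ± 7.82 CPM in sham libraries. The transcription factor gene ubtf, whose product opens ribosomal RNA genes for RNA polymerase I, averaged 63.0 ± 27.4 CPM in lesion and 82.1 ± 25.2 CPM in sham libraries. It had the most even sham libraries of all members, with a coefficient of variation of 30.7%, and its log2 fold change of -0.38 ± 0.27 did not pass (edgeR adjusted p = 0.633).

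The 10 factors of the small subunit held the widest range of changes, from -0.74 for NOB1 to 2.27 for WDR75, and 0 of 10 passed. WDR75, part of the early complex that binds the precursor RNA, ran from 0 over a median of 36.6 to 88.4 CPM in lesion libraries and from 0 over 1.49 to 33.1 CPM in sham libraries. In 7 lesion libraries it stood above every sham library, while lesion replicate 6 had no count. Its log2 fold change of 2.27 ± 1.17 was the highest of the members and its interval, from -0.15 to 4.68, includes 0 (edgeR adjusted p = 0.373). NOB1, the nuclease that makes the last cut in small-subunit RNA, ran from 32.6 over a median of 61.1 to 129.6 CPM in lesion libraries and from 43.3 over 102 to 247 CPM in sham libraries. It was the one member with an interval entirely below 0, from -1.36 to -0.12, and lay above the sham median in 1 lesion library. The means were 67.8 ± 30.7 CPM in lesion and 113 ± 56.4 CPM in sham libraries, and the log2 fold change of -0.74 ± 0.30 did not pass (edgeR p = 0.0213, adjusted p = 0.179).

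WDR43, a partner of WDR75 in the early complex, averaged 80.8 ± 35.7 CPM in lesion and 69.5 ± 42.3 CPM in sham libraries. RRP12, a factor in the export and late assembly of subunits, averaged 35.2 ± 18.7 CPM in lesion and 24.1 ± 25.4 CPM in sham libraries. For both genes the ranges overlapped widely. NAT10, which acetylates cytidines in small-subunit RNA, averaged 27.6 ± 16.6 CPM in lesion and 9.30 ± 13.1 CPM in sham libraries. LTV1, a late assembly factor, averaged 21.2 ± 9.24 CPM in lesion and 8.63 ± 10.6 CPM in sham libraries. RRP9, which binds the U3 snoRNA, averaged 13.3 ± 16.5 CPM in lesion and 4.97 ± 10.1 CPM in sham libraries. These 3 had log2 fold changes between 1.29 and 1.57, and each had more than 3 counts in 3 to 5 sham libraries against 9 or 10 lesion libraries. The GTPase gene BMS1 and its partner RCL1, which act in early cleavage of the precursor, had log2 fold changes of -0.39 and -0.15, and nop14, another early factor, 0.63. The last 3 averaged 7.86 to 16.01 CPM in lesion and 5.06 to 20.9 CPM in sham libraries. For BMS1 and RCL1 the medians stood in the opposite order to the means. They were 13.97 and 8.78 CPM in lesion and 8.13 and 5.19 CPM in sham libraries.

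Of the 10 matched factors of the large subunit, 9 had positive log2 fold changes, with a median of 0.24, and 0 of 10 passed. RRS1, which brings ribosomal proteins and RNA of the central protuberance to the particle, had the largest change of them. It ran from 12.1 over a median of 43.5 to 66.2 CPM in lesion libraries and from 0 over 5.03 to 44.2 CPM in sham libraries. All 10 lesion libraries lay above the sham median. Its means were 39.9 ± 16.7 CPM in lesion and 12.6 ± 16.2 CPM in sham libraries, a change of 1.67 ± 0.97 on the log2 scale (edgeR adjusted p = 0.476). The assembly factor gene nop16 came next, with 28.1 ± 11.2 CPM in lesion and 11.4 ± 11.7 CPM in sham libraries and a log2 fold change of 1.30 ± 0.92. The remaining 8 lay between -0.10 for the GTPase gene GNL2 and 0.56 for WDR12.

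BOP1 and WDR12 work together in a complex on the large-subunit precursor. BOP1 averaged 19.9 ± 20.5 CPM in lesion and 19.9 ± 14.4 CPM in sham libraries. WDR12 averaged 23.8 ± 18 CPM in lesion and 16.1 ± 15.8 CPM in sham libraries. The RNA methyltransferase gene nop2 averaged 35.8 ± 13.7 CPM in lesion and 29.9 ± 23.4 CPM in sham libraries. EBNA1BP2, a nucleolar assembly factor, averaged 41.4 ± 23.0 CPM in lesion and 39.6 ± 20.6 CPM in sham libraries, and rrp1 averaged 43.6 ± 22.3 CPM in lesion and 43.3 ± 17.6 CPM in sham libraries. For EBNA1BP2, GNL2 and rrp1, intervals from -0.75 to 0.88, -1.42 to 1.22 and -0.69 to 0.72 end below the median change of the cytosolic ribosomal protein genes. NIP7 and PPAN averaged 18.4 and 15.3 CPM in lesion and 13.7 and 13.2 CPM in sham libraries.

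Set per kilobase of exon, so that genes of different length can be compared, npm1a and ncl led in both groups. Their levels were 96.7 and 92.8 CPM per kilobase in lesion libraries, and 47.8 and 91.8 in sham libraries, with ncl first in the sham group. NOP10, a very short gene, ranked 3 in lesion libraries at 51.5 and 4 in sham libraries at 39.1. NOB1 ranked 12 in lesion libraries at 24.1 and 3 in sham libraries at 40.2. At the low end, POLR1A had 1.64 in lesion and 2.70 in sham libraries, and nop14 had 3.09 in lesion and 1.99 in sham libraries. Roles sorted by level only in part. The box C/D genes NOP56, NOP58 and FBL ranked 4, 6 and 9 in lesion libraries and 5, 8 and 10 in sham libraries. The RNA polymerase I genes POLR1D, POLR1C, ubtf, POLR1B and POLR1A ranked 19, 20, 21, 38 and 39 in lesion libraries. In sham libraries the same genes ranked 18, 15, 14, 30 and 37. The nucleolar proteins spread widely, with mybbp1a ranked 35 in lesion and 33 in sham libraries.

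Detection also differed between the groups. A member had more than 3 counts in 33 to 39 of 39 cases per lesion library (mean 37.0) and in 28 to 34 of 39 cases per sham library (mean 30.9). Of the 390 pairs of a member and a library in each group, 5.13% had at most 3 counts in lesion and 20.8% in sham libraries. Over all tested genes the shares were close to these, 6.33% in lesion and 20.4% in sham libraries, so that the difference was shared with genes at large. In all 10 libraries of their group, 26 members had more than 3 counts in lesion and 13 in sham libraries. There were 24 members above that level in more lesion than sham libraries and 0 in fewer. The coefficient of variation between libraries had a median of 53.1% over the members in lesion and 78.1% in sham libraries, and was larger in sham libraries for 33 of 39. It ran from 17.5% for ncl to 150% for POLR1A in lesion libraries, and from 30.7% for ubtf to 203% for RRP9 in sham libraries. No matching share over all tested genes was computed for the counts of 26, 13, 24 and 33 members. Those counts are therefore not read as particular to the members.

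**Figure D3:**
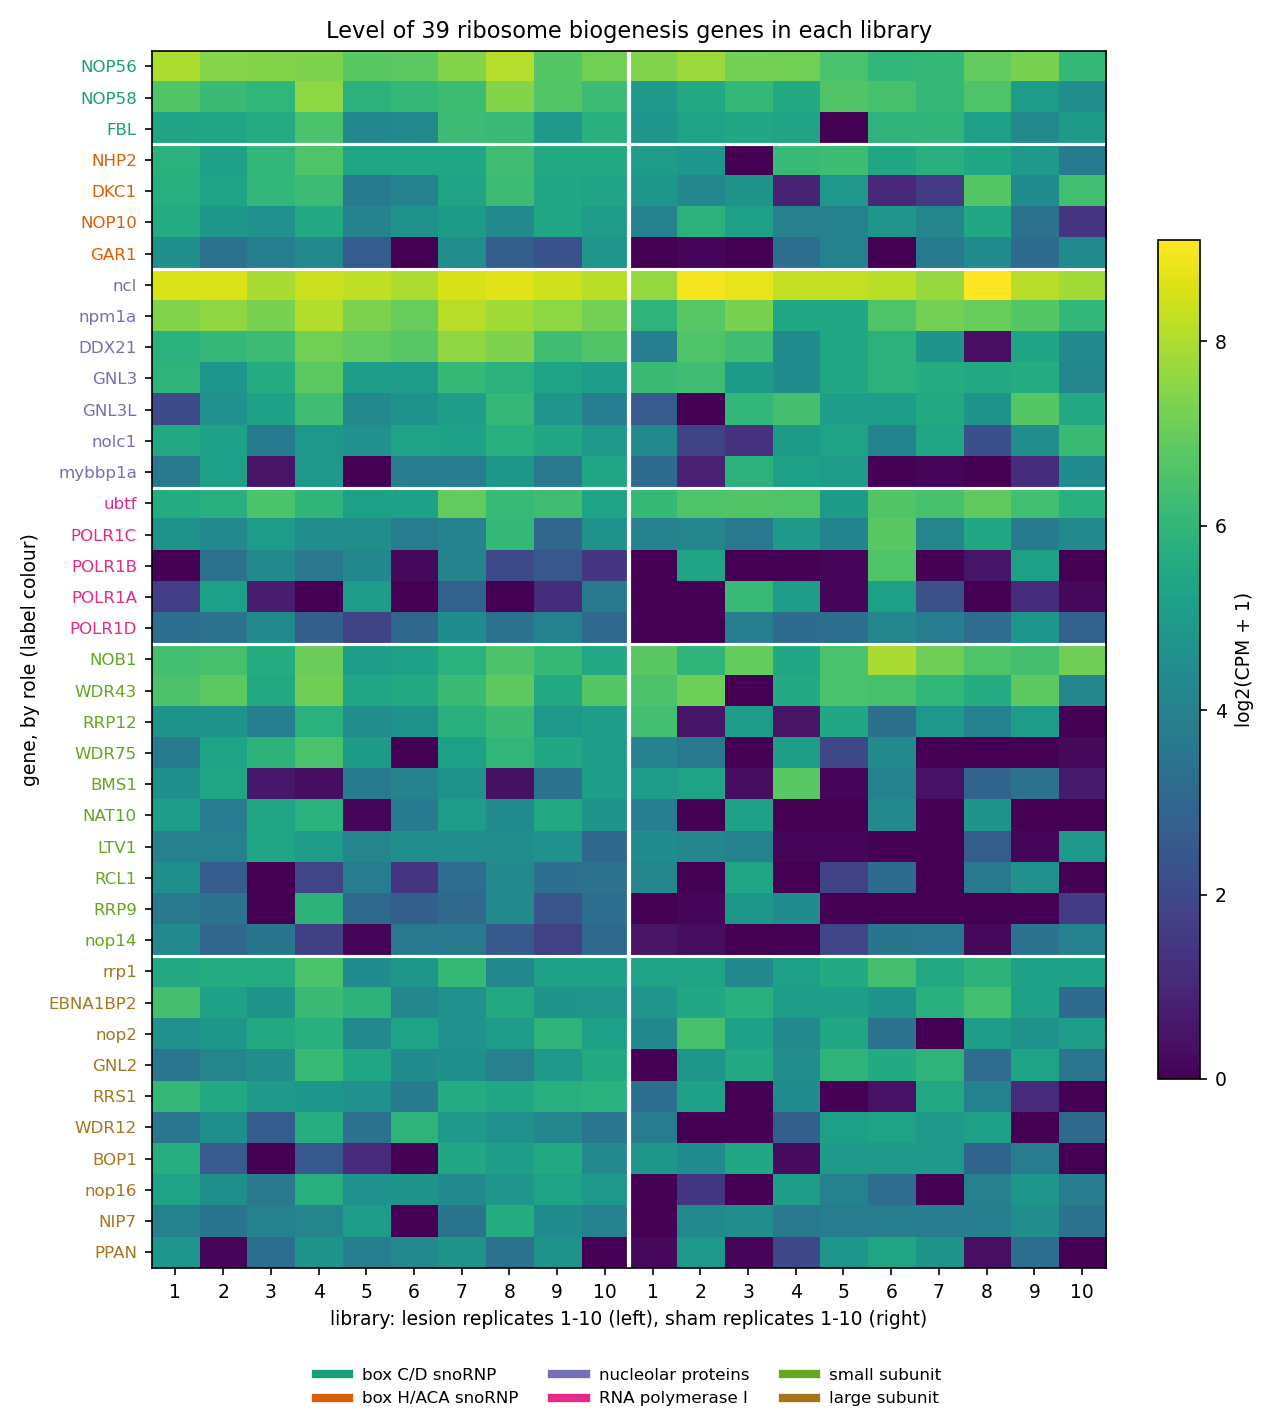
Level of each of the 39 ribosome biogenesis genes (rows, grouped by role, highest at the top of a role) in each library (columns, 10 lesion libraries on the left and 10 sham libraries on the right), as log2(CPM + 1) in colour. The darkest cells, near 0, are more frequent in sham libraries, where 20.8% of cells held at most 3 counts against 5.13% in lesion libraries.

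Summed over the 39 genes, the level was 1949 ± 472 CPM in lesion libraries and 1564 ± 279 CPM in sham libraries, 24.6% higher in the lesion mean. The sums ran from 1321 to 2781 CPM in lesion and from 1097 to 1885 CPM in sham libraries, and lesion replicates 1, 4, 7 and 8 were the 4 libraries above every sham library. Without ncl and npm1a the sums were 1428 ± 393 CPM in lesion and 1142 ± 183 CPM in sham libraries. Within the lesion group the libraries differed across many members at once. Replicate 4 had 28 of 39 members above the lesion median, and replicates 5 and 6 had 8 of 39 each and the lowest sums, 1431 and 1321 CPM. The proliferation marker mki67 had 486 and 653 counts in replicates 5 and 6, 187 and 122 in replicates 1 and 8, and 0 in the other 6 lesion libraries. Replicates 5 and 6 thus had the most mki67 counts and the lowest biogenesis sums. Replicates 1 and 8, which also had mki67 counts, had sums of 2077 and 2563 CPM, above every sham library.

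**Figure D4:**
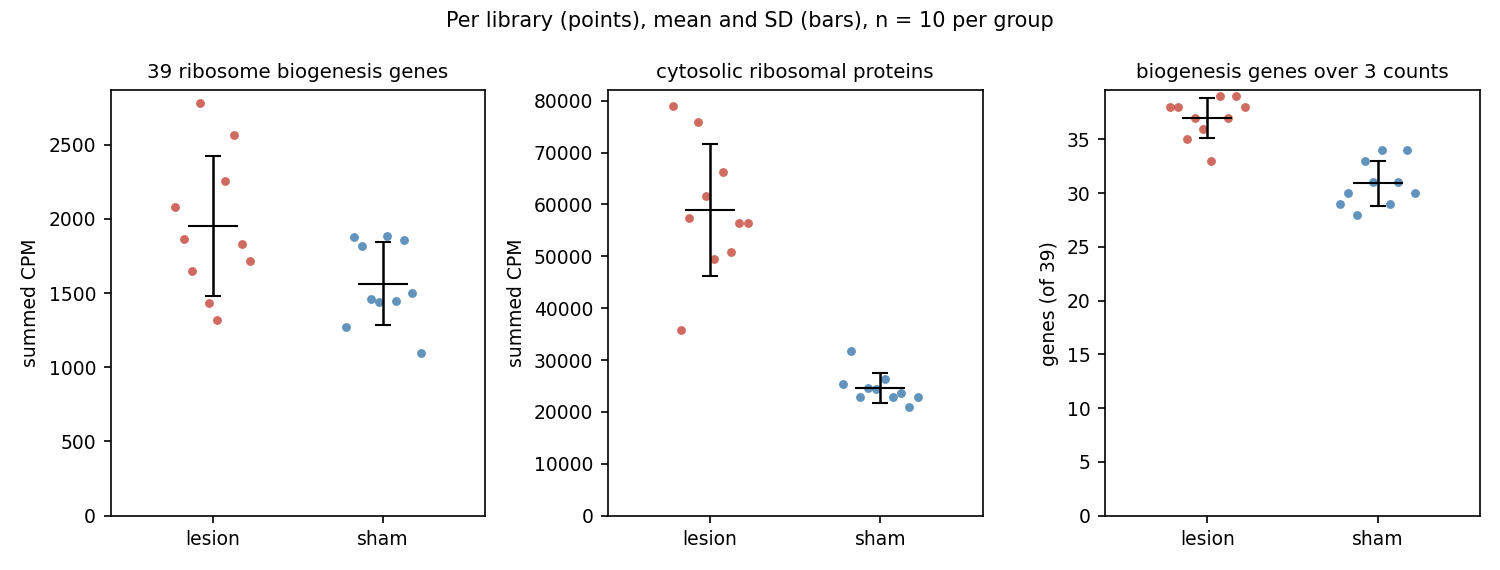
Per library (points, with the mean and SD as bars, n = 10 per group), the summed CPM of the 39 ribosome biogenesis genes, the summed CPM of the cytosolic ribosomal protein genes, and the number of biogenesis genes with more than 3 counts. The biogenesis sums overlap between lesion (1321 to 2781 CPM) and sham (1097 to 1885 CPM) libraries, whereas the ribosomal protein sums do not.

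The genes for the proteins of the ribosome itself were set beside the genes that build it. Of 81 tested cytosolic ribosomal protein genes, taken by symbol, 80 were higher in lesion libraries with a median log2 fold change of 1.23. Their sum was 58926 ± 12716 CPM in lesion and 24580 ± 2923 CPM in sham libraries, a 2.40-fold ratio with no overlap. For 10 biogenesis genes the 95% interval of the log2 fold change lay wholly below 1.23, the median of the ribosomal protein genes: NOP56, GNL3, GNL3L, ncl, POLR1C, ubtf, NOB1, EBNA1BP2, GNL2 and rrp1. For 26 of 39 the interval included both 0 and 1.23, so that neither value can be told from their change at this spread. The intervals of the biogenesis genes were wider, with a median half-width of 1.40 against 0.32 for the ribosomal protein genes. Mitochondrial ribosomal protein genes, which serve another ribosome, had 0 of 72 called, 3 with an edgeR p under 0.05 before adjustment, and a median of 0.35. Their share with a positive log2 fold change was 77.8%, close to the 76.9% of the biogenesis genes.

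**Figure D5:**
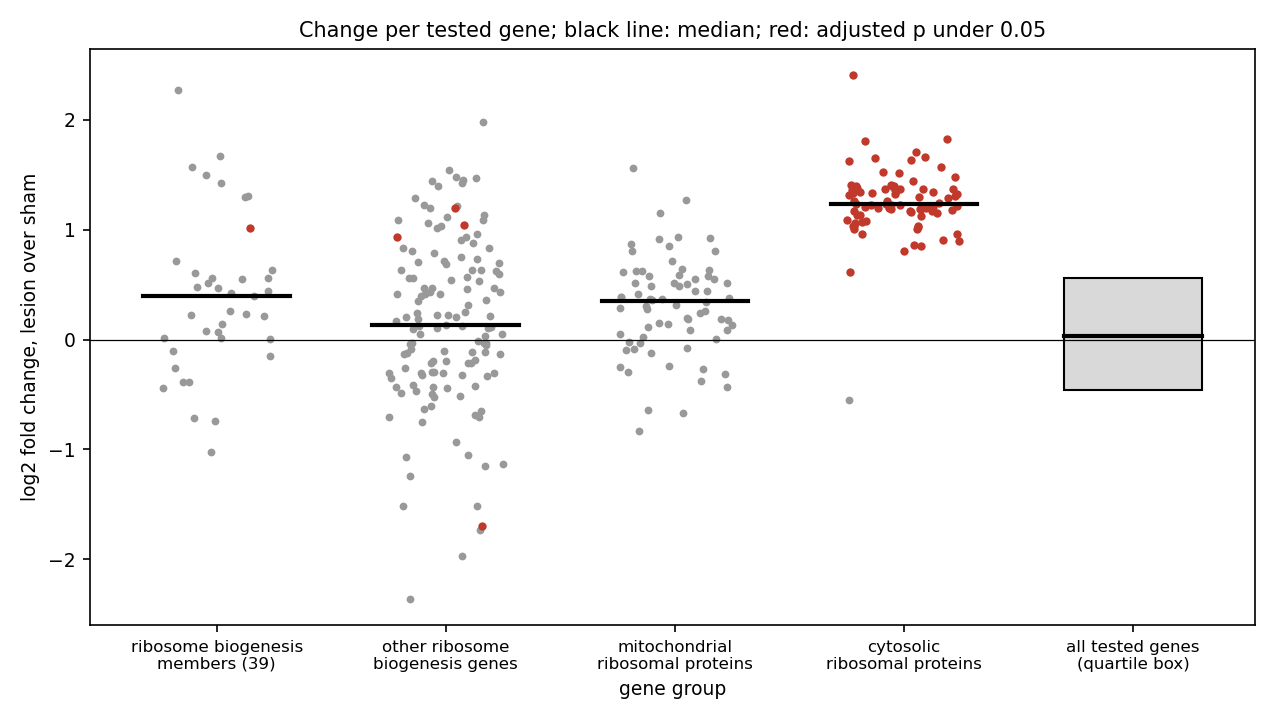
Log2 fold change, lesion over sham, of each tested gene (points) in the 39 ribosome biogenesis genes, other ribosome biogenesis genes, mitochondrial and cytosolic ribosomal protein genes, with the median as a black line, and red for an adjusted p under 0.05. The box gives the median and quartiles of all 10467 genes tested; 80 of 81 cytosolic ribosomal protein genes are red against 1 of 39 biogenesis genes.

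Other genes of the pathway, from a wider list that leaves the 39 out, were examined beside them. Of 137 tested, 3 rose and 1 fell, and 9 had an edgeR p under 0.05 before adjustment. Over all genes tested, 4.34% rose, 3.24% fell and 15.7% had an edgeR p under 0.05, so the list held no larger a share of calls. In the list 56.9% were positive, with a median log2 fold change of 0.13. For the 39 genes the share positive was 76.9% and the median 0.40, and the difference between the lists was not tested. GTPBP4, a GTPase of large-subunit assembly, ran from 193 over a median of 343 to 406 CPM in lesion libraries and from 124 over 153 to 238 CPM in sham libraries. In 9 of 10 lesion libraries it lay above every sham library. Its means were 332 ± 60.7 CPM in lesion and 161 ± 33.6 CPM in sham libraries (log2 fold change 1.04 ± 0.14, edgeR adjusted p = 1.6e-05). Its edgeR adjusted p was 0.051 within row B and 0.139 in the fit with the detected-gene covariate.

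The nucleolar factor gene nop53 rose and averaged 118 ± 40.6 CPM in lesion and 61.6 ± 27.4 CPM in sham libraries (log2 fold change 0.93 ± 0.27, edgeR adjusted p = 0.0353). That call was lost when any of lesion replicates 3, 4, 5 and 9 or sham replicates 4, 6, 7, 8 and 9 was left out (edgeR adjusted p up to 0.0996). RIOK3, a kinase of late small-subunit maturation, averaged 90.7 ± 48.1 CPM in lesion and 39.6 ± 20.8 CPM in sham libraries (log2 fold change 1.19 ± 0.37, edgeR adjusted p = 0.0499). It was kept when lesion replicate 2, sham replicate 5 or sham replicate 7 was left out and lost without any other library (edgeR adjusted p up to 0.148). The helicase gene ddx10, which acts in small-subunit processing, fell. It averaged 21.5 ± 10.6 CPM in lesion and 69.8 ± 39.4 CPM in sham libraries (log2 fold change -1.70 ± 0.46, edgeR adjusted p = 0.0199), and limma-voom did not call it (adjusted p = 0.291). All 3 genes also missed the threshold within row A, within row B and in the fit with the detected-gene covariate (edgeR adjusted p 0.121 to 0.878). With DESeq2 size factors nop53 and RIOK3 were lost (edgeR adjusted p = 0.0568 and 0.0712), without lesion replicates 2, 9 and 10 nop53 and ddx10 (edgeR adjusted p = 0.0832 and 0.128), and with limma-voom RIOK3 (adjusted p = 0.0638).

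Among 10 tested genes of the Myc family and its partners, 2 rose and 0 fell. The gene mych, a Myc family member of fish, ran from 541 to 1046 CPM in lesion and from 193 to 594 CPM in sham libraries, with 9 lesion libraries above every sham library. Its means were 760 ± 143 CPM in lesion and 357 ± 148 CPM in sham libraries (log2 fold change 1.09 ± 0.20, edgeR adjusted p = 5.1e-04). MYC (ENSDARG00000007241) averaged 136 ± 73.6 CPM in lesion and 61.9 ± 40.9 CPM in sham libraries (log2 fold change 1.14 ± 0.33, edgeR adjusted p = 0.0357). Another row with the symbol MYC was not called. The MYC call was lost without any of lesion replicates 1, 4, 6 and 7 or sham replicates 1, 2, 4, 6, 7, 9 and 10 (edgeR adjusted p up to 0.102). Within row A the log2 fold change was 0.78 for mych (edgeR adjusted p = 0.122) and 0.37 for MYC (edgeR adjusted p = 0.876), and neither passed there. MYC also missed the threshold with the detected-gene covariate (edgeR adjusted p = 0.372), without lesion replicates 2, 9 and 10 (edgeR adjusted p = 0.0641) and with the title row as a term (edgeR adjusted p = 0.0565).

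Of 14 tested genes of growth signalling through mTOR, the kinase that couples nutrients to ribosome production, 0 rose and 2 fell. The mTOR complex inhibitor gene akt1s1 averaged 199 ± 45.8 CPM in lesion and 346 ± 62.6 CPM in sham libraries (log2 fold change -0.80 ± 0.15, edgeR adjusted p = 7.6e-04). The translation repressor gene eif4ebp1 averaged 191 ± 43.9 CPM in lesion and 274 ± 52.5 CPM in sham libraries (log2 fold change -0.53 ± 0.15, edgeR adjusted p = 0.0319). The eif4ebp1 call was lost without lesion replicate 5, 8 or 9 or sham replicate 1 (edgeR adjusted p up to 0.0698). Of 15 tested proliferation genes 13 had positive log2 fold changes, with a median of 0.71, and 3 had an edgeR p under 0.05 before adjustment. Past the threshold 0 rose and 1 fell. The gene that fell was STMN1 (ENSDARG00000033655), a microtubule regulator that is also abundant in the nervous system. It averaged 8870 ± 1659 CPM in lesion and 13691 ± 2230 CPM in sham libraries (log2 fold change -0.63 ± 0.11, edgeR adjusted p = 4.4e-04). Another row with the symbol STMN1 was not called. PCNA, the sliding clamp of DNA replication, averaged 203 ± 169 CPM in lesion and 153 ± 121 CPM in sham libraries (edgeR adjusted p = 0.807). The calls of akt1s1, eif4ebp1 and STMN1 were lost within row B and with the detected-gene covariate (edgeR adjusted p from 0.0984 upward). The eif4ebp1 call was also lost within row A (edgeR adjusted p = 0.138) and without lesion replicates 2, 9 and 10 (edgeR adjusted p = 0.0718). The gene mki67 did not pass the filter on low counts, with 1448 counts over 4 lesion libraries and 1 count over the sham libraries.

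Along the genome the members were scattered, with 2 close pairs: NOP58 and WDR12 lie 17930 bases apart on chromosome 6, and NOB1 and NIP7 lie 9535 bases apart on chromosome 18 of GRCz10. The neighbours did not share a direction in the second pair, with log2 fold changes of -0.74 for NOB1 and 0.42 for NIP7, of which neither passed. Besides GNL3, short exon stretches on the opposite strand are shared by NOB1 (94 bases), ubtf (180), POLR1C (115), WDR75 (146), RRP9 (238) and GNL2 (318) with other genes.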

How the data were processed

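The values are read counts for each gene in a table the authors deposited, which also lists exon lengths. The submitters' processing notes name bcl2fastq 2.19.1, GSNAP, featureCounts 1.6.2 and build GRCz10. Per the file headers, counting used Ensembl release 87, a mapping quality of at least 1 and strand setting 0, which ignores strand. Each of 20 columns was matched to its sample by title. Of 32358 rows, 92 spike-in rows with 2 counts in all were left out. Symbols came from a name table that covers 26433 of 32266 genes.

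Counts were fitted with edgeR 4.0.16 in R 4.3.3: filterByExpr, trimmed mean of M values (TMM) scaling, a quasi-likelihood fit with group as its only term, and Benjamini-Hochberg adjustment over 10467 genes. All tests were two-sided. The SE of a log2 fold change is its size over the square root of F, and its 95% interval uses the fit's total degrees of freedom. CPM uses TMM-scaled library sizes; levels per kilobase divide it by exon length. The mean ± SD is over 10 libraries per group. The code was tested on simulated counts.

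The alternatives were DESeq2 1.42.0 size factors, its Wald test, limma 3.58.1 voom, no filter, and rows A and B of the titles. Others were detected genes as a covariate, lesion replicates 2, 9 and 10 left out together, and each library left out. The title row as a term was chosen after seeing the data. Lesion replicates 2, 9 and 10 had the most genes with a count of all libraries (15970, 16518 and 15693). Full values are given for npm1a, NOP58, FBL, ncl, DKC1, POLR1A and NOP56, the members with the highest and lowest change, and called genes of the other lists; DDX21, NOB1 and RRS1 were added after their values were seen. The members and lists were chosen with earlier results of these data known.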

Additional observations from a re-analysis of the deposited data

Results flagged for a closer look

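Of 100 groups of 10 libraries checked for a single library far from the rest (gap over range above Dixon's critical value), 13 had one. Of these, 10 were among the 78 groups of biogenesis genes. The critical value is set for about 1 in 20 when values are normally distributed. These CPM are unlogged and skewed, with zeros for some genes, so 13 of 100 cannot be compared with that rate. All 13 were the highest of their group, 4 in lesion and 9 in sham libraries.

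In lesion libraries, replicate 4 stood highest for GNL3 (112.4 CPM, next 67.5) and RRP9 (58.2 CPM, next 19.0). Lesion replicate 8 stood highest for POLR1C (65.8 CPM, next 31.6) and for PCNA (610.1 CPM, next 350.3). In sham libraries, replicate 6 stood highest for POLR1B (94.7 CPM, next 38.5), POLR1C (109.1 CPM, next 43.5) and NOB1 (247.1 CPM, next 139.3). Sham replicate 3 stood highest for POLR1A (69.4 CPM, next 34.9) and PCNA (482.1 CPM, next 193.9). Single genes stood out in sham replicate 4 (BMS1, 108.4 CPM, next 37.9), replicate 1 (RRP12, 81.9 CPM, next 42.6), replicate 2 (nop2, 85.8 CPM, next 42.5) and replicate 8 (MYC, 169.1 CPM, next 81.9).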

How the results depend on the processing

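Over 29 alternatives, 17 members kept 1 sign and 22 took both; 25 to 34 members were positive. npm1a passed in 26 alternatives and not within row A, within row B or with detected genes as a covariate. The covariate did not overlap between the groups, so calls lost with it cannot be assigned to it rather than to the group. Counts of genes over all genes, against 454 higher and 339 lower, were 1380 higher with limma-voom, 2780 and 758 without the filter, 562 lower with DESeq2's test, 201 lower in row A, 207 and 40 in row B, and 140 and 36 with the covariate; leaving out 1 library gave 395 to 511 and 295 to 382. The calls were 57.3% higher, against 50.6% with DESeq2 size factors, 49.0% with its test, 78.1% with limma-voom, 78.6% without the filter, 62.6% in row A, 83.8% in row B and 79.5% with the covariate. Limma-voom moved the median of all genes to 0.70 (no filter 0.21, covariate -0.13) and that of the members to 1.16; leaving out 1 library put the members between 0.27 and 0.42. Members called higher numbered 8 with limma-voom (DDX21, LTV1, NAT10, RRP9, RRS1, WDR75, nop16, npm1a), 2 with DESeq2's test, 2 without the filter, 0 in row A, row B and with the covariate, and 1 to 2 with 1 library left out; members called lower were 0 throughout. Other pathway genes called higher were 1 with DESeq2 size factors, 26 with limma-voom, 1 in row A, 0 in row B and with the covariate, and 1 to 3 with 1 library left out. Those called lower were 2 with DESeq2 size factors, with its test and without the filter, 0 with limma-voom, in row A, in row B and with the covariate, and 1 to 2 with 1 library left out. The causes were not tested.

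Uncalled members changed sign, in log2 fold change, as follows. With DESeq2 size factors and with its test ncl gave -0.052, BOP1 -0.069 and rrp1 -0.056. With the covariate GAR1 gave -0.34, GNL3L 0.0006, ncl -0.093, nolc1 -0.30, POLR1C 0.15, POLR1D -0.11, nop14 -0.37, RCL1 0.59, WDR43 -0.091, GNL2 0.15, nop16 -0.56 and PPAN -0.0007. With limma-voom GNL3L gave 0.34, POLR1A 0.30, POLR1B 2.39, BMS1 0.53, RCL1 1.77, BOP1 -0.65, GNL2 0.54 and rrp1 -0.079. Without the filter BOP1 gave -0.011. With the title row as a term, an alternative chosen after seeing the data, BOP1 gave -0.093 and rrp1 -0.039. In row A ncl gave -0.007, POLR1D -0.59, PPAN -0.067, rrp1 -0.43 and WDR12 -0.22. In row B GNL3L gave 0.86, nolc1 -0.26, POLR1B 0.23, POLR1C 0.22, WDR43 -0.064, BOP1 -0.77, GNL2 0.47 and NIP7 -0.038. Without lesion replicates 2, 9 and 10 mybbp1a gave -0.19, ncl -0.0017 and BOP1 -0.10. With 1 library left out, BMS1 ran from -0.67 to 0.49, BOP1 from -0.28 to 0.19, EBNA1BP2 from -0.12 to 0.25, GNL2 from -0.35 to 0.031, GNL3 from -0.067 to 0.24, POLR1A from -1.28 to 0.063, POLR1C from -0.56 to 0.26, POLR1D from -0.091 to 0.34, RCL1 from -0.39 to 0.43, ncl from -0.062 to 0.13 and rrp1 from -0.18 to 0.15.

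No paired analysis was possible because the labels number no replicates: the numbers used here follow the order of the samples and pair none of them.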
